A study of Mus musculus with 2 samples.

Results

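The genes described here are 10 endothelial surface and junction genes, Cdh5, Pecam1, Emcn, Kdr, Flt1, Tek, Tie1, Esam, Cldn5 and Eng, chosen by name as proteins of the endothelial cell surface and found through the Entrez gene number of each array feature. All 10 were on the array, each as 1 feature, among 24675 features with a gene symbol. The tissue came from C57Bl/6 mouse embryos at embryonic day 10.5, with no mutation or treatment named in the labels. Laser microdissection of 20 µm cryosections gave a dorsal piece, bounded by the notochord above and the aortic roof below, and a ventral piece from below the vessel. Both were cut from the same embryos, and the sources used here do not give their number. There was 1 Affymetrix Mouse Gene 2.0 ST array for each piece, each given in its title as biological replicate 4. Arrays of other replicates were not analysed here, so no value below has a replicate, an error or a p-value, and each comparison is between 2 arrays. The series asks what makes subaortic tissue a niche for hematopoietic stem cells. In whole pieces such as these, a smaller share of endothelial cells and less RNA per endothelial cell cannot be told apart.

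Endothelial cells line every blood vessel and hold together through adherens junctions, built on the cadherin encoded by Cdh5, and tight junctions, in which Cldn5 is the main claudin of this cell type. Their growth and stability depend on receptor tyrosine kinases, of which Kdr and Flt1 bind vascular endothelial growth factors and Tek binds angiopoietins. In the aorta of the midgestation embryo, part of this lining is hemogenic, and the first hematopoietic stem cells bud from it into the vessel. Whether either piece held aortic lining, or only other vessels, was not tested.

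Values are log2 expression levels after RMA, the standard method for these arrays, and ran from 1.45 to 14.1 on the dorsal and from 1.47 to 14.2 on the ventral array. Background was judged from 1365 olfactory and vomeronasal receptor genes, taken as silent in this tissue, and their 95th percentile over both arrays, 3.92, is the mark used below. A level under the mark is called background, which does not show that the gene was silent, since probes of different genes respond differently. Of the 10 endothelial genes, 6 exceeded the mark on at least 1 array, against 28.8% of all genes. Both arrays were above it for 2, Cdh5 and Pecam1, as for 19.3% of all genes. The ventral array alone was above it for 3, Emcn, Kdr and Cldn5, as for 4.56% of all genes, and the dorsal array alone for 1, Eng, as for 4.93%. Flt1, Tek, Tie1 and Esam lay under the mark on both arrays, between 2.55 and 3.54. Cdh5 was the 1 gene to exceed the 99th percentile of the receptor genes, 5.48, and did so on the ventral array.

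**Figure D1:**
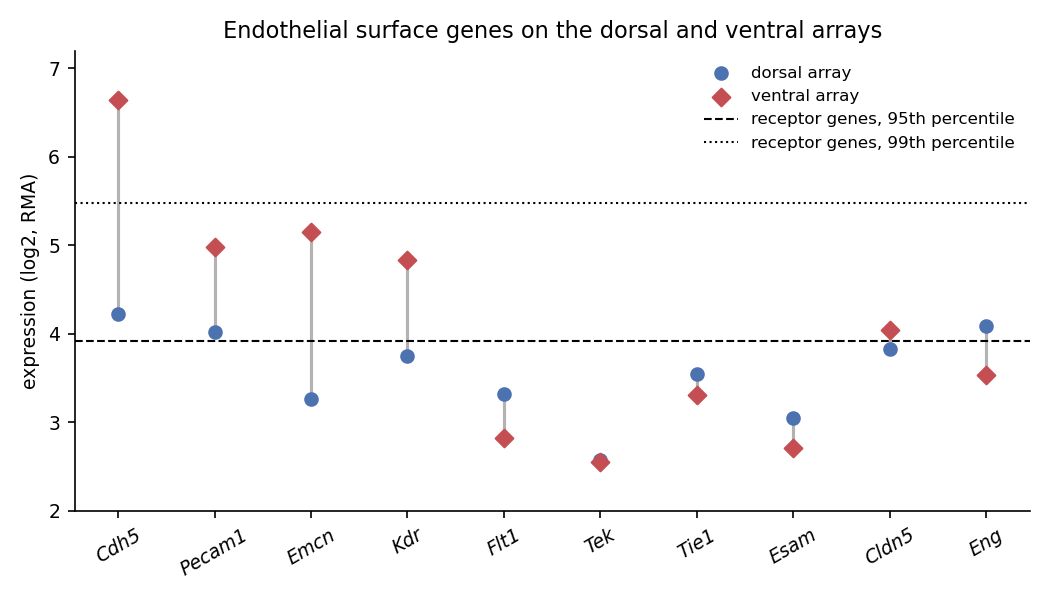
Expression of the 10 endothelial surface genes (y axis, log2 after RMA), with 1 point for the dorsal and 1 for the ventral array and a grey line joining them; dashed and dotted lines are the 95th and 99th percentiles of the receptor genes, 3.92 and 5.48. Cdh5, Pecam1, Emcn and Kdr have ventral points at 4.83 or above, while both points of Flt1, Tek, Tie1 and Esam lie under the dashed line.

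The sequences just upstream of 3 of these genes are shown because each of the 3 was above background on a single array, Emcn and Cldn5 on the ventral and Eng on the dorsal one, and each has bases here that lie outside its RefSeq gene model. They come from RefSeq promoter windows on the GRCm38.p6 build, which matched 7 of the 10 genes; Cdh5, Pecam1 and Esam were not among them. All 3 stretches are on the plus strand, run up to the base before the gene model begins and overlap no other gene of the RefSeq table. Capitals mark GGAA on either strand (TTCC when on the opposite one), the core bound by ETS transcription factors, a family to which the endothelial regulators Erg and Fli1 belong.
Emcn, chr3:137340828-137341061: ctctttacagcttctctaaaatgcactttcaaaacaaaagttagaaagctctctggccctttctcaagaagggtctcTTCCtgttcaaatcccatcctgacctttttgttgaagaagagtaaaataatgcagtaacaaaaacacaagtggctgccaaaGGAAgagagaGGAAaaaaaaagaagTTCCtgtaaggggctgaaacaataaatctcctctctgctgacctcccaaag
Cldn5, chr16:18776597-18776846: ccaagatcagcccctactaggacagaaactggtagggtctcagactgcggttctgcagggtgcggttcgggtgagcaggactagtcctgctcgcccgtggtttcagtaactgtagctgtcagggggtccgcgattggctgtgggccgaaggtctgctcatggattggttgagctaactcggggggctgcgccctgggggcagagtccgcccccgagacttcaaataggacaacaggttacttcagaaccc
Eng, chr2:32646345-32646594: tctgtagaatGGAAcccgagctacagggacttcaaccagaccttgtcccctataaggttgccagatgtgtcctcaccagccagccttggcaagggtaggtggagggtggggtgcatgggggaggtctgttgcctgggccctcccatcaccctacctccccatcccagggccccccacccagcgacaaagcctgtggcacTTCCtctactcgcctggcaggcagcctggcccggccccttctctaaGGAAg
The Emcn stretch holds 4 matches, the Eng stretch 3 and the Cldn5 stretch 0.

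Counted over the 250 bases before the start, GGAA matched 7 times for Tie1, 4 times each for Emcn, Kdr and Flt1, 3 times for Eng, 2 times for Tek and 0 times for Cldn5. This window can lie within a longer transcript of the gene: all 250 bases for Kdr and Flt1, 203 for Tek and 16 for Emcn are inside the RefSeq gene model. The core is common, with at least 1 match in 93.4% of 32851 windows of this length and a median of 3. The 8-base sequence AACAGGAA, the core of a site shared by forkhead and ETS factors in endothelial enhancers, which contains GGAA, was found on either strand in 2.25% of the windows and in 1 of these genes, Emcn, where it reads TTCCtgtt on the strand shown. AACAAT, a core of SOX sites, was present in 9.42% of windows, and in those of Emcn and Tek. AGATAA, a core of GATA sites, was in 9.99% of windows and in 0 of the 7. These are matches of letters and no measure of binding.

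Differences are given as ventral minus dorsal on the log2 scale. Genes were kept for counting if the higher array reached 3.10, the middle value, across genes, of the 2-array mean, which left 13982 genes and 8 of the 10, with Tek and Esam under it. Counts of genes at least 2-fold apart, here and below, use the measured values, so a counted gene whose lower level is under the mark may have a bound below 2-fold. On measured values Cdh5, Emcn and Kdr, 3 of these 8, were at least 2-fold higher on the ventral array and 0 on the dorsal array, where 9.44% of all kept genes were at least 2-fold higher on the ventral and 4.88% on the dorsal array. Without any floor, 5 of the 10 were higher on the ventral and 5 on the dorsal array. The median difference was 0.59 over the 8 kept and 0.10 over all 10, beside -0.12 over all kept genes. The floor passes a gene through whichever array is brighter, so the median over the 8 is a description only.

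Cdh5 encodes VE-cadherin, the adhesion protein of endothelial adherens junctions. It was measured at 4.22 on the dorsal and 6.64 on the ventral array. The dorsal level was thus 0.31 above the mark and the ventral level 2.72 above it, where 53 and 2 of the 1365 receptor genes were as high. The difference, 2.42 or 5.34-fold, was the widest of the 10 and ranked 246 of 13982 kept genes towards the ventral side. Among the 1330 kept genes within 0.5 of its mean level, 5.26% were as far apart or further in that direction.

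Pecam1 encodes CD31, an immunoglobulin-family protein of contacts between endothelial cells that platelets and leukocytes also carry. Its dorsal level, 4.02, lay 0.10 above the mark and its ventral level, 4.99, lay 1.07 above it. The ventral value was 1.96-fold higher, a difference of 0.97 that just missed the 2-fold threshold. Of genes at like level, 15.4% were as far apart in the same direction. Kdr, at 1.08, lay just past that threshold.

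Emcn encodes endomucin, a sialomucin of the endothelial surface found mainly on veins and capillaries in the adult. It was measured at 3.27 on the dorsal and 5.15 on the ventral array. With the dorsal value under the mark, the ventral level is given as at least 2.34-fold higher, the measured difference being 1.88. On measured values 3.41% of kept genes at like level were as far apart in that direction, but the dorsal value behind that difference is at background.

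Of the receptors for vascular endothelial growth factor, Kdr was higher on the ventral array and Flt1 was at background. Kdr, the main signalling receptor of endothelial cells for this factor, was at 3.75 on the dorsal and 4.83 on the ventral array. Its ventral level was at least 1.88-fold higher than the mark that stands in for the dorsal value, with 2.12-fold between the measured values. Flt1, which binds the same ligand and largely acts as a decoy, was at 3.32 on the dorsal and 2.82 on the ventral array, under the mark on both, so that a difference was not detectable at this signal. Flt4, the related receptor of lymphatic endothelium, was likewise at background, at 3.30 and 3.36. At the level of Kdr, 10.4% of kept genes were as far apart or further towards the ventral side on measured values.

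Both Tie receptors were at background. Tek, the angiopoietin receptor also called Tie2, was at 2.58 on the dorsal and 2.55 on the ventral array, and 528 and 424 of the 1365 receptor genes were as high. Tie1, an orphan relative that pairs with Tek, was at 3.54 and 3.31. Their differences, -0.02 and -0.23, carry no direction at such levels, and that of Tek turned positive after quantile normalization and after centring.

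Of the tight junction and adhesion genes, Cldn5 was at 3.82 on the dorsal and 4.04 on the ventral array, close to the mark on either side, and its ventral level was at least 1.09-fold higher. Esam, an adhesion molecule of endothelial junctions and platelets, was at 3.05 and 2.71, both at background. Eng encodes endoglin, a co-receptor for BMP9 and other ligands of the TGF-beta family that is also found on some stromal cells. It was the 1 gene of the 10 above the mark in dorsal tissue alone, at 4.09 against 3.53, or at least 1.13-fold higher there. The dorsal excess of Eng over the mark was 0.17, and 14.8% of kept genes at like level were as far apart towards the dorsal side.

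**Figure D2:**
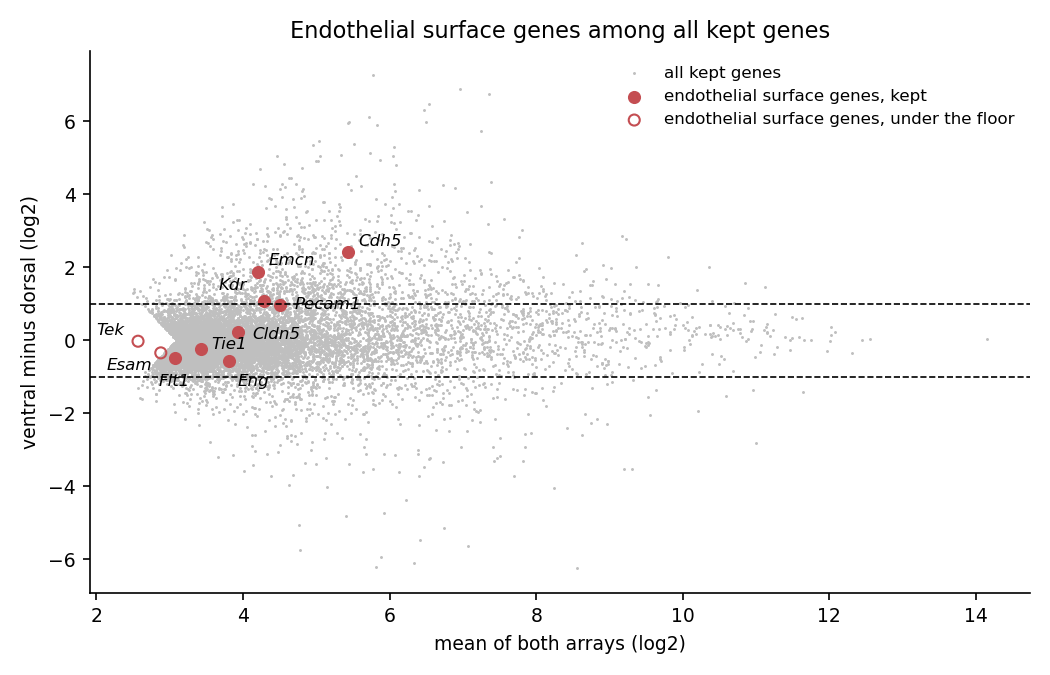
Difference between arrays (y axis, ventral minus dorsal, log2) against the mean of both arrays (x axis, log2) for 13982 kept genes in grey and the 10 endothelial surface genes in red, open circles being the 2 under the floor; dashed lines mark 2-fold. Cdh5, Emcn and Kdr lie above the upper line, Pecam1 just under it at 0.97, and the other 6 between -0.56 and 0.22.

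Receptor genes give a view of how far apart the arrays could lie for genes taken as silent. Of all 1365, 17 were at least 2-fold apart in either direction. Some 83 of them exceeded the mark on an array, and 12 of these, or 14.5%, were at least 2-fold apart. The 83 are the brightest of the set and so the least safely taken as silent. Of the 6 endothelial genes above the mark, 3 were at least 2-fold higher on the ventral array, beside 17.7% of all genes above the mark, and 0 on the dorsal array, beside 8.46%. A gene that passes through its brighter array alone is more likely to show a gap, so these shares describe the choice as well as the tissue. Summed on the linear scale, the signal of the 10 genes was 125 on the dorsal and 253 on the ventral array. Without Cdh5 the sums of the other 9 were 106 and 153. Both pairs of sums include the 4 genes at background on both arrays.

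The ligands of these receptors were within 2-fold on the arrays wherever they were kept. Of 13 ligand genes 4 exceeded the mark on an array, and 0 of the 9 kept differed by 2-fold or more. Vegfa, the main ligand of Kdr, was at 4.52 on the dorsal and 4.09 on the ventral array, and Vegfb, a ligand of Flt1, was 1.95-fold higher on the dorsal array at 7.14 against 6.18. The Tek ligands were at background, Angpt1 at 3.91 on the dorsal and 3.77 on the ventral array and Angpt2 at 2.48 and 2.83. Vegfc and Tgfb2 were the other two above the mark, on the ventral array alone, at 3.93 and 4.04. The median difference of the kept ligands was -0.14.

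Of 9 co-receptors and partner receptors, 3 were above the mark. Bmpr2, a type II BMP receptor through which endoglin ligands signal and which many cell types express, was 2.27-fold higher on the ventral array, at 9.85 against 8.67. Nrp1, a semaphorin receptor that also acts with Kdr, was at 3.40 on the dorsal and 4.12 on the ventral array. Tgfbr1 was at 5.85 and 5.97. Acvrl1, the endothelial type I receptor for BMP9, was at background, at 3.48 and 3.28.

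Junction proteins that bind the cadherin and claudin tails or sit beside them included several that were higher on the ventral array. Of 19 kept junction partners, 5 were at least 2-fold higher there and 0 on the dorsal array, with a median difference of 0.39. Cgnl1, paracingulin, was 7.61-fold higher at 6.97 against 4.05, Tjp1, the scaffold ZO-1, 3.82-fold at 8.06 against 6.13, and Afdn, afadin, 3.03-fold at 6.43 against 4.83. F11r, the junctional adhesion molecule JAM-A, was at least 1.98-fold higher. Krit1, singled out after its values were seen, was 2.16-fold higher. The catenins that bind Cdh5 were within 2-fold, with Ctnnb1 at 7.60 on the dorsal and 7.35 on the ventral array and Ctnnd1 at 5.36 and 6.12. Epithelia use most of these genes too.

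Of 20 endothelial transcription factor genes, 7 exceeded the mark on at least 1 array and 13 were at background on both. Of 16 kept, 1 was at least 2-fold apart, Mef2c, a factor shared with muscle. It was at least 2.16-fold higher on the ventral array at 5.03 against 3.16. Fli1 was well above the mark on both arrays, at 6.90 on the dorsal and 7.09 on the ventral, Sox17 was at 4.68 and 4.47, and Erg was under it on both, at 3.72 and 3.86. The median difference of the 16 kept was -0.05, which includes genes at background on both arrays and so does not show equal expression.

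Of 36 other endothelial genes, 8 were above the mark on at least 1 array, beside 28.8% of all genes. Among the 28 at background on both arrays was Cd34, a sialomucin of small vessels and progenitors, at 2.97 and 2.90. Of 23 kept, 1 was counted as at least 2-fold higher on the ventral array on measured values, Podxl, at 4.38 against 3.18. Its bound is at least 1.38-fold, and the coelomic epithelium expresses it as well. Cd93, an endothelial lectin, was at 3.28 on the dorsal and 4.22 on the ventral array. In the opposite direction, Arhgef15, an endothelial guanine nucleotide exchange factor, was at 3.95 against 3.19, and Gpihbp1, the capillary anchor of lipoprotein lipase, at 4.05 against 3.48, each just above the mark on the dorsal array. Ramp2, a co-receptor for adrenomedullin singled out after its values were seen, was above the 99th percentile of the receptor genes on both arrays, at 5.69 and 5.72. The median difference of the kept genes was -0.02, and their summed linear signal with those not kept was 404 on the dorsal and 407 on the ventral array. These sums include the 28 genes at background on both arrays, so near-equal sums do not show equal expression.

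Arterial and venous genes were also mixed, and most were at background on both arrays, 9 of 14 arterial and 6 of 8 venous and lymphatic genes. Of 11 kept arterial genes 2 were counted as at least 2-fold higher on the dorsal array on measured values. The Notch target Hey1 was 3.30-fold higher there, at 7.49 against 5.77. For the other, the Notch ligand Jag2, named after its values were seen, both levels were at background, at 3.80 and 2.69, so that a difference was not detectable at this signal. The connexin gene Gja4 was at 4.32 on the dorsal and 3.83 on the ventral array, and the receptor gene Notch4 at 4.08 and 4.33. Among the 8 venous and lymphatic genes, all kept, the nuclear receptor gene Nr2f2, active in veins and in mesenchyme, was 3.83-fold higher on the ventral array at 6.85 against 4.91, and the other 7 were within 2-fold.

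Markers of other cells differed between the same arrays. Of 13 smooth muscle and pericyte genes 7 exceeded the mark on an array and 4 of 11 kept were counted as at least 2-fold higher on the ventral array, with a summed linear signal of 165 on the dorsal and 384 on the ventral array; Cnn1, calponin of smooth muscle, was at least 7.44-fold higher, and the contractile gene Myh11 was at background on both. Of 8 coelomic epithelium genes 5 were above the mark, all on the ventral array, with sums of 86.2 and 289, and Wt1 was at 3.80 on the dorsal and 6.61 on the ventral array. The dorsal sum of that list holds only levels under the mark. Of 8 sclerotome genes 6 were above the mark and 3 were at least 2-fold higher on the dorsal array, among them Pax9, 4.35-fold, with sums of 544 and 281, while Pax1 was at background on both. The part of these cells in the values of Cdh5, Emcn and Kdr was not tested.

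Summed erythroid signal was near-equal on the arrays, and most of it came from globin genes, each at 10.1 or above on both arrays. The 10 erythroid genes matched summed to 12582 on the dorsal and 11947 on the ventral array, and Klf1, an erythroid transcription factor, was the 1 gene at least 2-fold apart, 2.14-fold higher on the dorsal array. All 7 platelet genes were at background on both arrays. Platelets share Pecam1 and Esam with endothelium. Of 10 blood progenitor genes 2 were above the mark, Gfi1b at 4.66 on the dorsal and 5.28 on the ventral array and Spn at 4.14 and 3.74, and Ptprc, the leukocyte antigen CD45, was at background. Of 10 macrophage genes 4 were above the mark, and 0 of 8 kept were at least 2-fold apart.

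**Figure D3:**
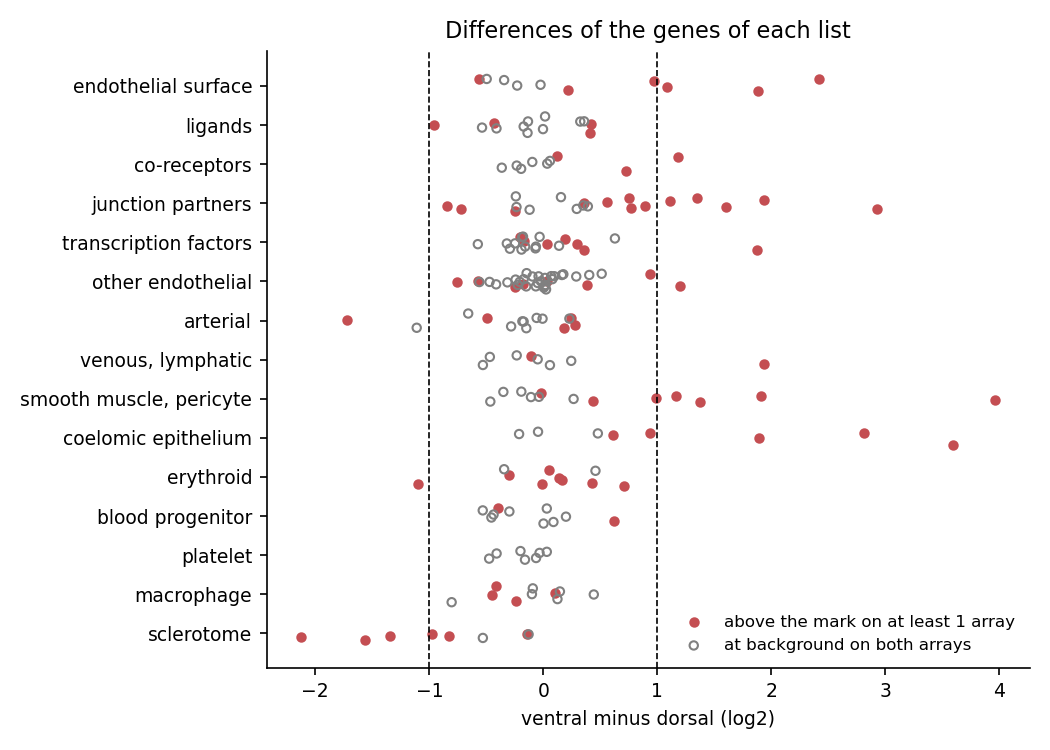
Difference between arrays (x axis, ventral minus dorsal, log2) for each measured gene of the endothelial, related and other cell type lists (rows, with vertical scatter added to separate points); filled points were above the receptor mark on at least 1 array and open points on neither, and dashed lines mark 2-fold. Points past the upper line number 3 of 8 kept endothelial surface genes and 5 of 19 junction partners. They number 4 of 11 for smooth muscle and pericytes, 3 of 7 for coelomic epithelium and 1 of 23 for other endothelial genes. Co-receptors have 1 of 8, transcription factors 1 of 16 and venous and lymphatic genes 1 of 8. Among all kept genes the share was 9.44%.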

How the data were processed

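Per the labels' protocols, 200 to 1000 pg of total RNA was amplified by a single-primer isothermal method and hybridised. The deposited values are log2 expression values, which the authors made with Affymetrix Expression Console and RMA, per the submitters' processing notes; the sources used here give no versions or build. Amplification from so little RNA can distort single genes. The 754 features without a symbol in the platform annotation were left out.

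With 1 array per tissue the comparison was a log2 difference, with no test. Where the lower array was under the receptor genes' 95th percentile, a fold is a bound against it. The 10 genes, the 15 related lists (of 201 genes with the 10, 194 matched) and the methods were chosen with earlier results of these data known. Named genes were all 10, up to 4 of each list with the greatest differences above background, and 10 set names. Acvrl1, Myh11, Pax1 and Ptprc were named outside this rule, and others outside it are marked where they appear. Summed signals are over all matched genes of a list, with those at background included. The log2 difference and the 2-fold count were tested on simulated arrays with known changes. The floor, the background mark, the bounds and the promoter matches were not tested in this way. Alternatives covered quantile normalization, centring, a loess on level (span 0.3), and other floors, fold thresholds and marks. Python 3.11.15, numpy 2.4.6, pandas 2.3.3, statsmodels 0.14.6 and matplotlib 3.10.9 were used.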

Additional observations from a re-analysis of the deposited data

How the results depend on the processing

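Of 57 alternative values, 51 kept their side of the 2-fold threshold (differences), stayed within 1.5 times (counts) or within 0.3 (medians) of the value given. This is a loose measure, since differences far under the threshold had little room to cross it. The count of 3 genes at least 2-fold higher on the ventral array became 4 at 1.5-fold and after centring and 2 at 3-fold, all within these limits. The dorsal count stayed at 0. For 1.5-fold, 3-fold and centring no matching share over all kept genes is given. Whether the endothelial genes stand out under these 3 settings can therefore not be judged. After quantile normalization the ventral count of endothelial genes was 3. There, out of 13796 kept genes, 1161 passed the 2-fold threshold towards the ventral side and 796 towards the dorsal side. Over quantile normalization, centring on the median of kept genes (a shift of -0.12) and the loess on level, Cdh5 ranged from 2.22 to 2.54, Emcn from 1.81 to 2.00 and Kdr from 1.03 to 1.20. Pecam1 ranged from 0.86 to 1.09 and passed 2-fold after centring, at 1.09. Tek, at -0.02, became 0.09 both after quantile normalization and after centring, and the other 9 kept their sign. The loess, fitted on kept genes, gave no value for Tek and Esam. With genes required to exceed the receptor genes' 99th percentile, 1 gene, Cdh5, was left to be counted as at least 2-fold higher on the ventral array, the median difference was its own 2.42, and 1 gene was above background in place of 6. The median difference of 0.59 was 1.03 over the 6 genes above the 95th percentile and 0.10 over all 10. In alternatives chosen after seeing the data, a mark taken for each array, 4.06 dorsal and 3.83 ventral, put 6 genes above it, with the dorsal value of Pecam1 now under it. The 90th percentile put 7 above it, Tie1 being added on the dorsal array alone. With that lower mark Kdr, Cldn5 and Eng were above it on both arrays. Emcn was then the only gene above it on the ventral array alone, so the split by array depends on the mark. No paired analysis was possible because each tissue had 1 array. Signal near background limits Flt1, Tek, Tie1 and Esam.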

Other observations

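Cadherin and claudin genes were looked at after the values of Cdh5 and Cldn5 had been seen. Of 23 genes named Cdh and a number, 6 were above the receptor mark on at least 1 array: Cdh2, Cdh3, Cdh5, Cdh6, Cdh11 and Cdh24. Cdh2, the neural and mesenchymal N-cadherin that endothelium also makes, was the other one at least 2-fold higher on the ventral array, at least 2.97-fold at 5.49 against 3.66. Cdh11, a cadherin of mesenchyme, was at 8.48 on the ventral array and 1.43-fold higher on the dorsal array, and Cdh6 at 5.10 and 5.14. Cdh1, the epithelial E-cadherin, was under the mark on each array, at 3.09 and 2.90.

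Of 23 claudin genes 5 were above the mark on at least 1 array. Cldn3, a claudin of epithelia, was at least 1.36-fold higher on the dorsal array, at 4.36 against 3.23, and was the 1 claudin at least 2-fold apart on measured values. Cldn11, Cldn12 and Cldn19 were above the mark on both arrays and within 2-fold, Cldn11 at 4.93 and 4.97. Among the 6 receptor tyrosine kinases of the families nearest to Kdr and Flt1, Pdgfra, a receptor of mesenchyme, was the 1 above the mark, at 4.13 on the dorsal and 5.47 on the ventral array, or 2.54-fold higher there.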
